A study of Rattus norvegicus with 2 samples.

Results

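The chemokines, the interleukins and their receptors were measured in the hypothalamus of the spontaneously hypertensive rat (SHR), an inbred line whose blood pressure climbs with age. Members were chosen by a rule on gene names, set with earlier results of these data known. Rat symbols starting with Ccl, Cxcl, Ccr, Cxcr, Xcl, Xcr or Ackr and a number were taken, with Cx3cl1 and all symbols of Il and a number, except Ccl2, Ccl3, Il1b, Il18, Il6r and Il1r1. The gene table listed 132 such symbols, of which 118 had a probe, among 39500 genes and unnamed transcripts on the array. A gene with several probes was represented by its brightest one, by mean signal. The 14 symbols with no matched probe were Ackr1, Ackr4, Ccr8, Cxcl3, Il13ra1-ps1, Il15ra, Il17d, Il18rap, Il19, Il23r, Il27, Il27ra, Il31 and Il4i1, and they were not analysed here.

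The comparison addresses sex differences of expression in brain centres of the circulation in SHR. The male group was 1 pool of hypothalamic RNA from 5 SHR aged 9 weeks, and the female group was 1 such pool from 5 female SHR of the same age, with 100 ng of RNA per rat. All rats had free access to food and water, were killed with ether and then decapitated, and carried no labelled transgene or treatment. No rats of another strain were in the comparison, so nothing here separates the hypertensive strain from others. Each pool was measured on 1 single-colour array, so no test was possible, and every difference describes these 2 pools. In pooled bulk tissue, fewer cells of a type and less RNA per cell cannot be told apart.

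Chemokines are small secreted proteins that guide migrating cells, and they are grouped by the spacing of their first cysteines into CC, CXC, CX3C and XC types. They act on G protein-coupled receptors, while the atypical receptors bind and remove them without the usual signal. Interleukins are cytokines that signal through paired receptor chains, mostly to JAK kinases and STAT factors, or, in the interleukin-1 and interleukin-17 families, to NF-kappaB. In resting brain a few members are made by neurons and glia, among them Cx3cl1, Cxcl12, Cxcl14, Il33 and Il34, while most are known from immune cells.

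Signals are the scanner software's background-subtracted intensities in units. Differences are log2 ratios of the male over the female signal, each array first divided by its 75th percentile (2203 units male, 2254 units female), and a positive value means more male signal. A gene was measured when its probe was well above background on at least 1 array. Where only 1 array met this, a dim side below the lowest such signal on its array (15.1 units male, 12.9 units female) was raised to it. The fold is then a bound, given as "at least". A dim side above that signal kept its value, and the fold is a plain ratio. Signals not well above background can exceed it (16.5 units for Cxcl9 on the male array), so the bounds are approximate. The error given with a difference is the technical SD of the spot-to-spot difference among repeat spots at that signal, scaled to the number of spots. It was 0.038 above the 75th percentile, 0.056 at a log2 signal of -2 to 0 relative to it, 0.11 at -4 to -2, 0.23 at -6 to -4 and 0.31 below that. It covers printing and scanning, not animals or pools. A spot was said to lie in a patch if 2 or more of its 18 nearest measured spots of other probes differed at least 2-fold in 1 direction.

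Of the 118 members, 52 were well above background on both arrays, 3 on the male array only and 10 on the female array only, and 53 were on neither. The measured share was 55.1%, against 66.1% of all genes and transcripts. By class, 19 of 31 chemokines, 8 of 19 chemokine receptors, 18 of 33 interleukins and 20 of 35 interleukin receptors and binding proteins were measured. A filter on background keeps a dim gene that is bright on 1 array only, so the measured members are not a sample of all members. The choice of the brightest probe likewise favours a probe bright on 1 array, as for Ccl20, whose other probe was dim on both arrays.

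The members differed little between the pools as a group. Among the 52 members measured on both sides, the male signal was higher for 28 and lower for 24 (53.8% higher, against 45.0% of all 24134 genes and transcripts), with a median log2 difference of 0.03 against -0.02 over all. The sign of the members' median turned with median centring, with quantile normalization and without spots in patches. Within 1.5-fold lay 47 of the 52 (90.4%), against 96.6% of all. Past 2-fold toward the male side were 3 of the 65 measured members (4.62%), against a background of 2.56% of all measured genes. These were Ccl19, Il17re and Il36a. Past 2-fold toward the female side were 2 (3.08%), Ccl20 and Il5ra, against a background of 1.64%. Split by mean log2 signal at -4, 2 of 43 fainter measured members passed 2-fold toward male, against 595 of 10233 fainter genes and transcripts. Among brighter ones it was 1 of 22, against 74 of 15877. Toward female the counts were 2 against 383 and 0 against 46. Of members measured on both sides, the male signal was higher for 60% of the fainter and 45.5% of the brighter. The matching shares of all genes and transcripts were 51.2% and 41.7%. The counts of 3 and 2 are too small to be read apart from these backgrounds.

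**Figure D1:**
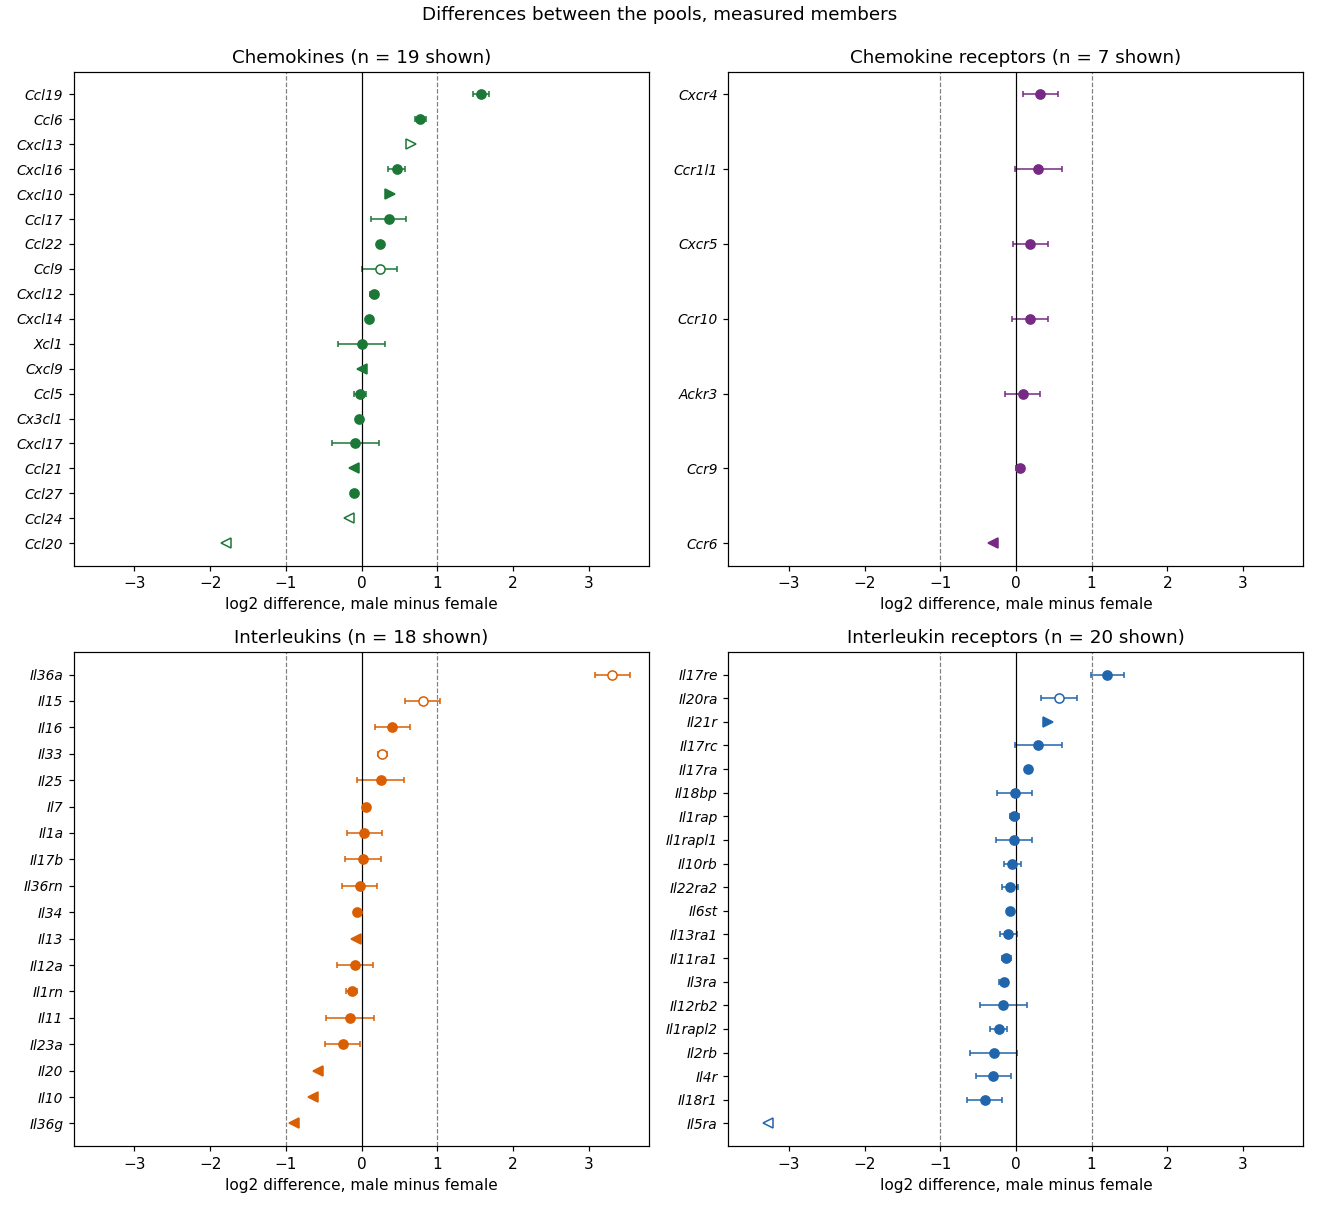
Log2 difference (male minus female, horizontal axis) of 64 measured members by class. Circles are genes well above background on both arrays with the technical SD as bars. Triangles are genes above background on 1 array, as bounds or as ratios where the dim side was not raised. Open symbols are spots in patches, and dashed lines mark 2-fold. All 6 chemokine receptors drawn with a circle lie to the right of 0, while 14 of 18 interleukin receptors with a circle lie to the left.

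The counts of directions were uneven in the 2 receptor classes. All 7 chemokine receptors above background on both arrays were slightly higher in the male pool, from 0.06 to 0.32. Of 18 interleukin receptors and binding proteins 14 were lower there, and the 4 higher ones were Il17ra, Il17rc, Il17re and Il20ra. Chemokines had 9 higher and 4 lower (median 0.16), and interleukins 8 higher and 6 lower (median 0.03). The shared background is that 45.0% of all genes were higher in the male pool. That share varied with brightness, being 51.2% for genes with a mean log2 signal up to -4 and 41.7% for brighter genes. Of the chemokine receptors, Ackr3, Ccr10, Ccr1l1, Cxcr4 and Cxcr5 belong to the fainter group. The receptor counts were 7 and 14 of 18 with median centring too, and with quantile normalization 6 chemokine receptors were above 0 and none was below. With normexp background correction 12 of the 18 interleukin receptors were lower, Il18bp and Il12rb2 having turned, and with the mean over probes 13 were. No chemokine receptor differed by over 3 technical SD, and among these interleukin receptors Il17ra and Il17re did.

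Among CC chemokines above background on both arrays, Ccl19 stood furthest apart. Ccl19, which guides lymphocytes and dendritic cells through the receptor Ccr7, gave 268 units in the male pool and 91.7 units in the female pool. The male signal was 2.99-fold higher, a difference of 1.58 ± 0.11 (technical SD, 1 spot), and of 1.08 with normexp. The spot lay outside patches, with 1 of its 18 measured neighbours also at least 2-fold higher on the male array. Ccr7 itself was well above background on neither array. The 250 bases before the Ccl19 start are shown because this gene had the largest difference among members above background on both arrays with their spots outside patches. They are chr5:61761165-61761414 of GRCr8, minus strand, from RefSeq, with the match to the interferon response element (ISRE) in capitals:
Ccl19: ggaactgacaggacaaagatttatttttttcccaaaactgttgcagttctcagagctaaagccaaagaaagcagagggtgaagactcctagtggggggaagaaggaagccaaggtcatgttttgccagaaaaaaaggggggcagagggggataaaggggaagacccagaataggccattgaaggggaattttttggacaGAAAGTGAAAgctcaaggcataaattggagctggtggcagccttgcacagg
The capitals match TTTC, any 2 bases and TTTC on the other strand, 51 to 42 bases before the start. A match is a description of letters, not of a bound site.

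Ccl6, a chemokine of myeloid cells in rodents, was measured on many spots. Its probe had 10 spots on each array, none in a patch. Male spots ran from 51.8 to 60.9 units with a median of 53.7, and female spots from 26.0 to 39.6 units with a median of 33.2. The 2 ranges did not overlap, and all 10 spots were higher on the male array. The mean difference was 0.78 ± 0.17 (SD of 10 spots), or 1.71-fold, and single spots lay between 0.42 and 1.03. With normexp it was 0.35. The 250 bases before its start, chr10:68883367-68883616 of GRCr8, minus strand, hold no match to the 3 motifs searched:
Ccl6: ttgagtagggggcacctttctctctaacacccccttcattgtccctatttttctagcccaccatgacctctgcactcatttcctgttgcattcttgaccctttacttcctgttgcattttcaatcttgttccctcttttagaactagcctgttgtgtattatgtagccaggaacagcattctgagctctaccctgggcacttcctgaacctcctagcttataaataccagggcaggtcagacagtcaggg

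**Figure D2:**
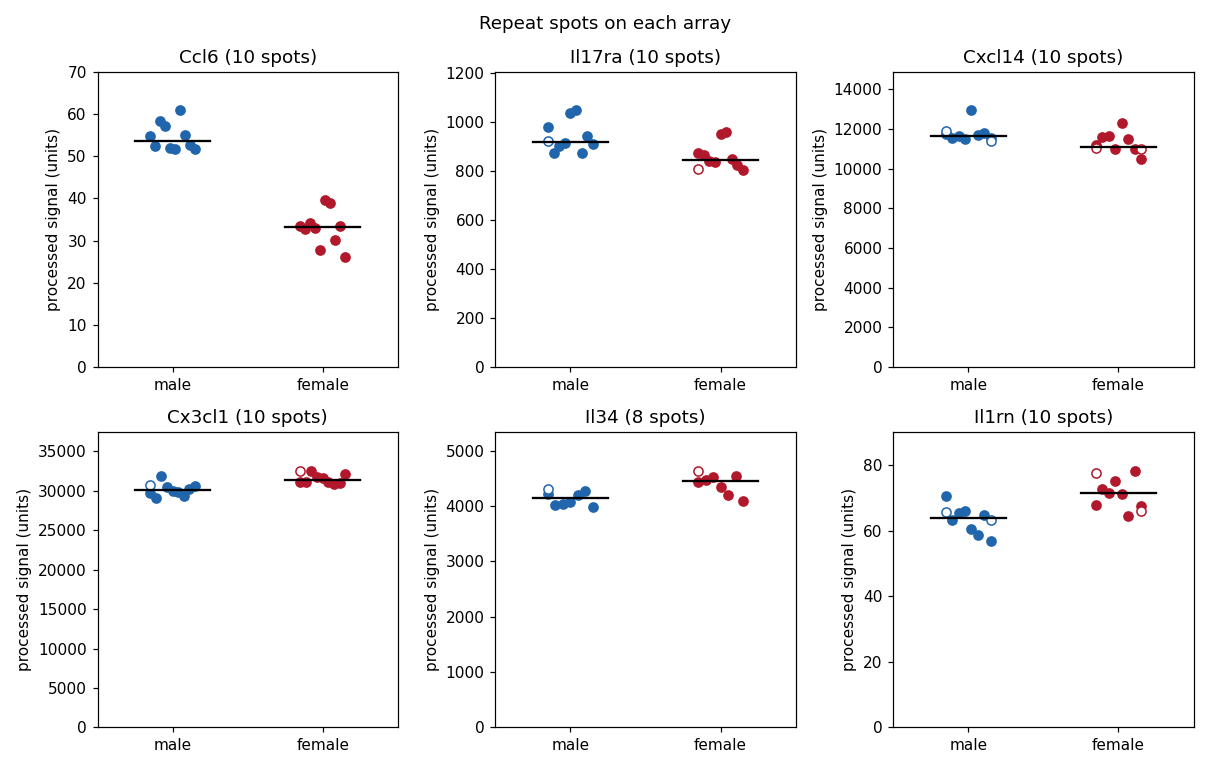
Processed signal (units, vertical axis from 0) of each repeat spot on the male and female arrays for 6 members with 8 or 10 usable spots; lines are medians and open circles are spots in patches. The Ccl6 spots are separate between arrays (51.8 to 60.9 against 26.0 to 39.6 units), while the spots of the other 5 genes overlap.

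The other CC chemokines were closer. Ccl9, which lies beside Ccl6 in the genome and is also made by myeloid cells, gave 40.7 and 35.3 units (0.24 ± 0.23) on a spot in a patch, where 3 of 18 neighbours were higher on the female array. Ccl5, a T cell and macrophage attractant next to them, gave male spots of 359 and 373 units and female spots of 374 and 384 units. Its difference of -0.02 was within the technical SD of 0.077. Ccl17, a ligand of Ccr4, gave 47.3 and 37.7 units (0.36 ± 0.23). Ccl22, the other Ccr4 ligand, gave 2858 and 2460 units (0.25 ± 0.038) on the probe used. Its other probes, at 79.9 against 86.2 units and 81.7 against 98.0 units, went the other way (-0.08 and -0.23), so the probes of Ccl22 disagree. Ccl27, a ligand of Ccr10, gave 3393 and 3735 units (-0.11 ± 0.038), and its second probe was at -0.15. These 2 Ccl27 probes agreed in direction.

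The remaining CC chemokines were near or below background. Ccl20, the ligand of Ccr6, gave 3.88 units in the male pool and 53.5 units in the female pool, at least 3.46-fold higher there. Its spot was in a patch, where 8 of 18 neighbours were at least 2-fold higher on the female array, and its second probe was on neither array above background. Ccl21, the other Ccr7 ligand, and Ccl24, an eosinophil attractant, were above background on the female array only. Ccl21 was at least 1.07-fold above the male pool, and Ccl24, whose male side was not raised, was 1.12-fold above it. Not well above background on either array were Ccl1, Ccl4, Ccl7, Ccl11, Ccl12, Ccl25, Ccl26 and Ccl28.

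Of the CXC chemokines, Cxcl14 and Cxcl12 are known from resting brain. Cxcl14, a chemokine made by neurons among other cells, gave male spots from 11391 to 12938 units and female spots from 10503 to 12324 units. All 10 spots were higher on the male array, by a mean of 0.10 ± 0.047 (SD of 10 spots). The spots of the arrays overlap in level, while the spot-by-spot difference kept its sign. Cxcl12, the ligand of Cxcr4 and Ackr3 that keeps progenitors and interneurons in place, gave 1537 and 1406 units (0.16 ± 0.056), with 0.15 and 0.35 on its other probes. All 3 Cxcl12 probes were higher in the male pool, the last on 2 spots in patches. Cxcl16, a membrane-bound ligand of Cxcr6, gave 273 and 203 units, 1.38-fold higher in the male pool (0.46 ± 0.11). That difference was 0.47 with normexp, and its spot lay outside patches. Cxcl17, a mucosal chemokine, gave 26.4 and 28.6 units (-0.08 ± 0.31).

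The inflammatory CXC chemokines were near background. Cxcl10, an interferon-induced ligand of Cxcr3, gave 16.3 units in the male pool and 11.9 units in the female pool, at least 1.3-fold above the female pool. Cxcl9, its sister gene, was above background on the female array only, with 15.2 units there and 16.5 units on the male array, and no direction follows. Cxcl13, which attracts B cells, gave 19.8 units in the male pool and 4.57 units in the female pool. It was at least 1.57-fold above the female pool, on a spot within a patch, and came to 0.18 with normexp. Cxcl1, Cxcl2, Cxcl6 and Cxcl11, the first 3 of which attract neutrophils, were well above background on neither array.

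Cxcl1 shows how single spots behaved on these arrays. Of its 10 spots, 3 carried an outlier flag and were left out. On 1 of them the male array gave 177 units and the female array 2.98, on another the female array gave 271 units and the male array 3.63, and on the third the female array gave 49.3 units and the male array 3.89. The 7 other spots of the same probe lay between 3.49 and 3.95 units on the male array and between 2.98 and 11.8 units on the female array. A dim probe could thus read over 10 times its usual signal on 1 spot of 1 array. All but 11 members had 1 spot, for which no such comparison exists.

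Motifs known from cytokine promoters were searched in the members. A promoter entry was found for 93 of the 118 members, from RefSeq on GRCr8. The kappaB motif, bound by NF-kappaB, was searched on both strands of the 250 bases before the start, and 12 of 93 members (12.9%) held a match, against 3.52% of 27457 promoters. The ISRE (TTTC, any 2 bases, TTTC) was in 6.45% of members and 3.29% of all, and the STAT site GAS (TTCNNNGAA) in 9.68% and 7.52%. Of the 12 kappaB genes 6 were measured and 6 were not. The windows of 3 neutrophil chemokines, of the interferon-induced Cxcl10 and of 2 members that were at least 2-fold apart follow, with the kappaB match in capitals and 15 bases on each side:
Cxcl1: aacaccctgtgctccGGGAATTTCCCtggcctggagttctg
Cxcl2: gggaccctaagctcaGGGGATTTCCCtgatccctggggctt
Cxcl6: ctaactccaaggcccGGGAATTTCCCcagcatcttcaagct
Cxcl10: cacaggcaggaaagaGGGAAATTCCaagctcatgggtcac
Ccl20: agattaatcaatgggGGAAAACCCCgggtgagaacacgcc
Il36a: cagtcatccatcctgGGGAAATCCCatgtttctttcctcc
They lie at chr14:17479380-17479420 (minus strand), chr14:17467304-17467344 (minus), chr14:17596480-17596520 (minus), chr14:15988864-15988903 (plus), chr9:91837055-91837094 (plus) and chr3:27394915-27394954 (plus). In Cxcl1, Cxcl2 and Cxcl6 overlapping matches start 84, 74 and 88 bases before the gene start, and these 3 genes were dim on both arrays.

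Cx3cl1, or fractalkine, is made by neurons and signals to microglia through Cx3cr1. Its 10 spots gave 29143 to 31872 units on the male array and 30880 to 32563 units on the female array. The mean difference was -0.03 ± 0.020 (SD of 10 spots), with 8 of 10 spots lower on the male array after scaling. The pools were thus within a few percent of each other for this gene, and the spot ranges overlapped. Xcl1, a lymphocyte chemokine, gave 22.1 and 22.5 units (0.00 ± 0.31).

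Of 19 chemokine receptors 11 were above background on neither array, and the measured ones were close between the pools. Cxcr4, the receptor of Cxcl12, gave 61.9 and 50.7 units (0.32 ± 0.23). Ackr3, the atypical receptor that takes up Cxcl12, gave 114 and 110 units (0.09 ± 0.23). Cxcl12 and both of its receptors were thus on the same side, each by little. Ccr10, the receptor of Ccl27, gave 62.1 and 55.9 units (0.19 ± 0.23), and Ccr1l1, a receptor-like gene of the Ccr1 cluster, gave 24.6 and 20.5 units (0.30 ± 0.31). Ccr6 was above background on the female array only, at 17.4 units in the male pool and 22.0 units in the female pool, 1.23-fold higher there.

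For Ccr6, Ccr9 and Cxcr5 the probe decides whether the gene counts as measured. The second Ccr6 probe was above background on neither array, at 7.18 and 6.18 units. Ccr9, the receptor of Ccl25, gave 854 and 840 units (0.06 ± 0.056), while its second probe was on neither array above background. Cxcr5, the receptor of Cxcl13, gave 60.3 and 54.2 units (0.19 ± 0.23), and its second probe too was dim on both. Which probe reports the receptor RNA was not tested. Not well above background on either array were Ccr1, Ccr2, Ccr3, Ccr4, Ccr7, Cxcr1, Cxcr2, Cxcr3, Cxcr6, Xcr1 and Ackr2.

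**Figure D3:**
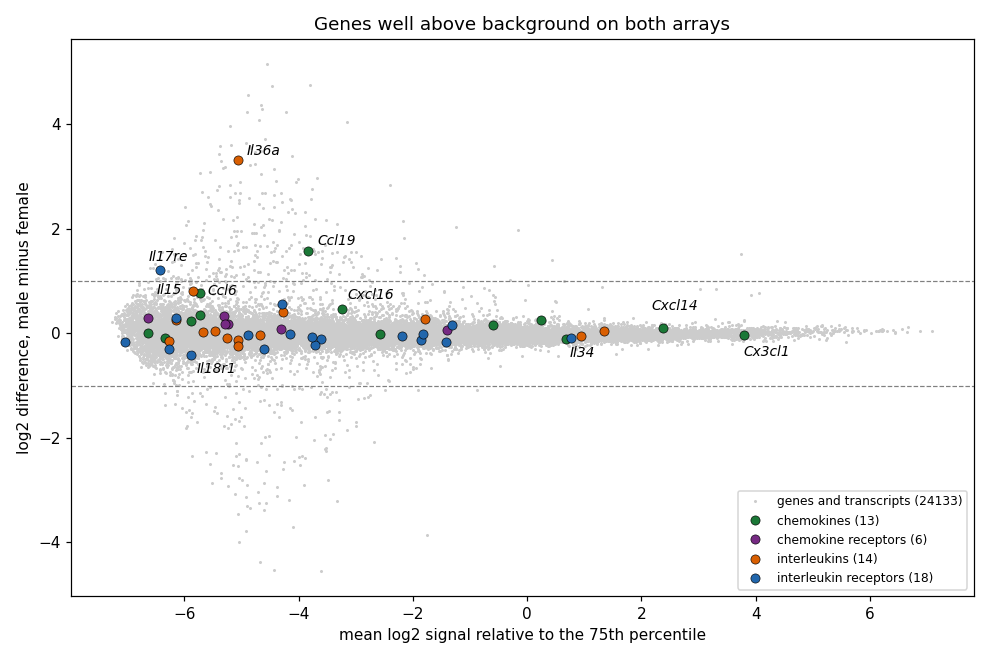
Log2 difference (male minus female, vertical axis) against mean log2 signal relative to the 75th percentile (horizontal axis) for 51 members above background on both arrays, coloured by class, over the other genes and transcripts in grey; dashed lines mark 2-fold. Bright members such as Cx3cl1 (-0.03) and Cxcl14 (0.10) lie near 0. Of the members past 2-fold, Il17re and Il36a lie below a log2 signal of -4 and Ccl19 just above it. The grey cloud is wider below: 92.8% of all genes lay within 1.5-fold at -4 or lower, against 98.6% above.

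In the interleukin-1 family the brain-made cytokine Il33, an alarmin of glial nuclei, gave 705 and 596 units (0.28 ± 0.056) on a spot in a patch. Il1a gave 50.6 and 50.4 units (0.04 ± 0.23). Il1rn, the natural antagonist of the interleukin-1 receptor, had 10 spots, from 56.9 to 70.5 units on the male array and from 64.4 to 78.3 units on the female array. The mean was -0.13 ± 0.10 (SD of 10 spots), with 9 of 10 spots lower on the male array and overlapping ranges. Il36rn, the antagonist of the interleukin-36 receptor, gave 85.8 and 89.3 units (-0.02 ± 0.23), and its second probe was dim on both arrays.

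The interleukin-36 agonists, known from skin and other epithelia, gave the largest difference among members above background on both arrays. Il36a gave 208 units in the male pool and 21.4 units in the female pool, 9.93-fold higher in the male pool (3.31 ± 0.23). Its spot was in a patch, with 3 of 18 neighbours at least 2-fold higher on the male array. The second Il36a probe, whose spot was in a patch as well, was above background on neither array, at 12.6 and 2.80 units. Il36g, the neighbouring gene, gave 3.89 units in the male pool and 28.6 units in the female pool, at least 1.85-fold above the male pool. Its spot lay outside patches, and the difference was -0.23 with normexp. Il36b, beside Il36a, and the receptor gene Il1rl2 that all 3 share were not above background on either array, nor was Il1f10.

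The interleukin-1 receptor family was slightly lower in the male pool for the 5 measured members, by the probe used. Il18r1, a chain of the interleukin-18 receptor, gave 32.5 and 44.3 units (-0.41 ± 0.23), and -0.16 with normexp. Il1rapl2, a synaptic relative, gave 154 and 185 units (-0.23 ± 0.11). Il1rap, the shared accessory chain, gave 617 and 641 units (-0.02 ± 0.056) and 0.14 on its second probe. Il1rapl1, which organises synapses and is linked to intellectual disability, was at -0.02 on each of its 2 probes, and Il18bp, the decoy for interleukin-18, was at -0.02. Il1r2, a decoy receptor, and Il1rl1, the Il33 receptor, were dim on both arrays.

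The cytokines of the interleukin-2 to interleukin-5 type were mostly dim. Il15, which sustains natural killer and memory T cells, gave 50.3 and 29.4 units, 1.75-fold higher in the male pool (0.81 ± 0.23). Its spot was in a patch where 4 of 18 neighbours were at least 2-fold higher on the male array and 2 were higher on the other. Il7, a lymphocyte growth factor, gave 5710 and 5631 units (0.05 ± 0.038) on the probe used, while its other probe was dim on both arrays. Il13 was above background on the female array only, with a bound of at least 1.05-fold. Il2, Il3, Il4, Il5, Il9 and Il21 were not above background on either array.

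Their receptors were lower in the male pool where both arrays measured them. Il4r, the receptor chain of interleukin-4 and interleukin-13, gave 81.1 and 102 units (-0.30 ± 0.23). Il13ra1, its partner, gave 175 and 193 units (-0.10 ± 0.11), and -0.06 on its second probe. Il2rb, the signalling chain shared by interleukin-2 and interleukin-15, gave 25.9 and 32.4 units (-0.29 ± 0.31), and -0.17 on its second probe. Il3ra, the interleukin-3 chain, gave 781 and 895 units (-0.16 ± 0.056). Both probes of Il13ra1 and of Il2rb were on the same side. Il21r was above background on the male array only, at least 1.35-fold higher there.

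Il5ra, the eosinophil receptor chain, had the largest bound of all members. It gave 3.49 units in the male pool and 150 units in the female pool, at least 9.73-fold above the male pool on its 1 probe and 1 spot. The spot was in a patch, with 6 of 18 neighbours at least 2-fold higher on the female array and none on the male array. Its ligand Il5 was not above background on either array. Il2ra, Il2rg, Il7r, Il9r and Il13ra2 were dim on both arrays.

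The measured members of the interleukin-6 and interleukin-12 types were all slightly lower in the male pool, by the probe used. Il6st, the gp130 chain through which interleukin-6 and interleukin-11 signal, gave 3659 and 3966 units (-0.08 ± 0.038), and 0.02 on its second probe. Il11ra1, the interleukin-11 receptor, gave 582 and 651 units (-0.13 ± 0.056), and Il11 gave 27.1 and 30.9 units (-0.15 ± 0.31). Il12a, a subunit of interleukin-12, gave 56.3 and 61.1 units (-0.09 ± 0.23). Il23a, the specific subunit of interleukin-23, gave 60.6 and 73.7 units (-0.25 ± 0.23). Il12rb2 gave 15.9 and 18.3 units (-0.16 ± 0.31), while its second probe was dim on both arrays, at 11.6 units male and 3.35 units female. These 6 differences were each small, and Il12rb2 turned sign with normexp (0.11). Il6, Il12b, Il12rb1 and Il31ra were not above background on either array.

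In the interleukin-10 family, Il10, the main anti-inflammatory interleukin, gave 13.1 units in the male pool and 24.1 units in the female pool. It was at least 1.56-fold above the male pool on a probe for a predicted transcript, and its other 2 probes were dim on both arrays. Il20 gave 10.3 and 23.0 units, at least 1.48-fold above the male pool. Il20ra, a receptor chain for it, gave 137 and 94.6 units, 1.48-fold higher in the male pool (0.57 ± 0.23), its spot being in a patch. Il10rb, the chain shared across the family, gave 473 and 500.3 units (-0.05 ± 0.11), and Il22ra2, a soluble decoy for interleukin-22, gave 158 and 171 units (-0.08 ± 0.11). Il22, Il24, Il10ra, Il20rb and Il22ra1 were dim on both arrays.

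Of the interleukin receptors above background on both arrays and outside patches, those of interleukin-17 were the 3 with a higher male signal. Il17re, the chain that recognises interleukin-17C, had male spots of 38.8 and 38.9 units and female spots of 15.9 and 18.6 units. The spots of the arrays did not overlap, and the difference was 1.21 ± 0.22, or 2.31-fold. Its second probe gave 25.5 units in the male pool and 12.7 units in the female pool, at least 2.02-fold above the female pool. No spot of either probe was in a patch. With normexp the first probe was at 0.36, but its male signal is below the offset of 50 units, so 2-fold was hardly within reach. Il17ra, the chain shared by the family, had 10 spots, from 873 to 1048 units on the male array and from 807 to 960 units on the female array. All 10 were higher on the male array, by a mean of 0.16 ± 0.060 (SD of 10 spots).

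Il17rc, the partner chain for interleukin-17A and interleukin-17F and the gene next to Il17re, gave 34.4 and 28.7 units (0.30 ± 0.31). The cytokines Il17b (43.2 and 43.7 units, 0.02 ± 0.23) and Il25 (34.0 and 29.2 units, 0.26 ± 0.31) were the measured ligands of the family. Il17a, Il17c, Il17f, Il17rb and Il17rd were not above background on either array, so the ligand known for Il17re was not measured here.

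Of the 2 other interleukins, Il34 is a neuronal ligand of the microglial receptor Csf1r. Its 8 usable spots gave 3974 to 4307 units on the male array and 4085 to 4638 units on the female array, a mean of -0.06 ± 0.055 (SD of 8 spots), with 7 lower on the male array. Il16, a CD4 ligand also made by neurons, gave 132 and 102 units, 1.33-fold higher in the male pool (0.41 ± 0.23), and 0.28 with normexp. Il34 and Cx3cl1, which both act on microglia from neurons, were therefore close between the pools.

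Position on the slide bears on the members past 2-fold. Spots at least 2-fold apart lay in patches: 73.0% of 1602 such spots, against 10.6% of other measured spots. Of the 65 measured members 9 had their spot in a patch, which were Ccl9, Ccl20, Ccl24, Cxcl13, Il5ra, Il15, Il20ra, Il33 and Il36a. Cx3cl1, Cxcl14, Il17ra, Il1rn and Il34, with 8 or 10 spots each, had 1 or 2 of them in patches and were not counted here. Without spots in patches, Ccl19 and Il17re were the 2 members at least 2-fold above the female pool, against a background of 0.482% of 23047 genes, and no member was at least 2-fold above the male pool, against 0.143%. The part of the patches in the differences of Il36a, Ccl20 and Il5ra was not tested beyond these values.

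**Figure D4:**
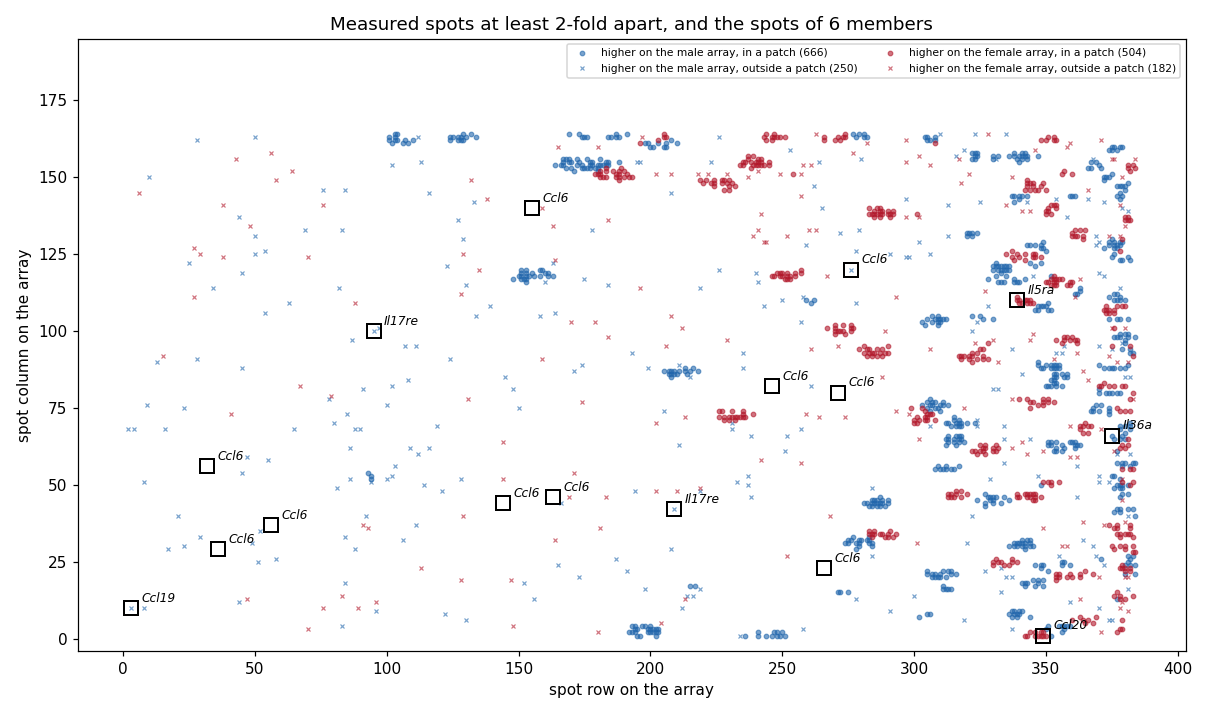
Places on the array (spot row and column) of the 1602 measured spots at least 2-fold apart, blue where the male array was higher and red where the female array was higher, filled circles in patches and crosses outside. Black squares mark the spots of 6 members: Il36a, Il5ra and Ccl20 sit in patches, and Ccl19, both Il17re spots and all 10 Ccl6 spots do not.

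Normexp background correction, which adds an offset of 50 units, made the difference smaller in size for 15 of the 16 members at least 0.4 apart and for 44 of all 65. Il36a came to 1.35, Ccl19 to 1.08 and Il5ra to -1.35, still past 2-fold, while Ccl20 came to -0.64, Il17re to 0.36, Ccl6 to 0.35 and Il15 to 0.25. None of these changed direction. For signals near or below 50 units the offset leaves little room to reach 2-fold. Normexp is thus a weak test of the 2-fold calls of Ccl20 and Il17re.

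By gene order in GRCr8, 53 of the 118 members lie in 19 runs of neighbouring protein-coding genes. Of these runs, 6 had at least 2 members above background on both arrays, with all such members on 1 side in 1 run and on both sides in 5. On chromosome 5, Ccl19 (1.58) lies in a run with Ccl27 (-0.11) and Il11ra1 (-0.13). On chromosome 10, Ccl6 (0.78) lies in a run with Ccl9 (0.24) and Ccl5 (-0.02), and on chromosome 19 Ccl17 (0.36), Cx3cl1 (-0.03) and Ccl22 (0.25) are neighbours. On chromosome 4, Il17re (1.21) and Il17rc (0.30) were both higher in the male pool. In the run of 6 interleukin-1 genes on chromosome 3, Il36g and Il36a had opposite directions.

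Genes that carry the signals of these receptors were close between the pools. Of 68 listed signalling, sister and processing genes 64 had a probe, and 54 were above background on both arrays, with 29 higher and 25 lower in the male pool and a median of 0.04. Tnf, an inflammatory cytokine, was the 1 gene of the list at least 2-fold apart, at 74.1 and 531 units (-2.81 ± 0.11) on a spot in a patch. It came to -1.83 with normexp. Of those above background on 1 array, Il1b was at least 1.85-fold and the chemokine-cleaving peptidase Dpp4 at least 1.73-fold above the female pool (1.22-fold and 1.3-fold with normexp). The remaining one, Cmklr1, gave 19.1 units in the male pool and 28.0 units in the female pool. It was 1.43-fold above the male pool (1.1-fold with normexp) on a spot in a patch. Of the others on both arrays the largest were Osm, an interleukin-6 type cytokine, at 0.57 ± 0.23, and Stat6, the factor downstream of interleukin-4, at -0.55 ± 0.23 on a spot in a patch. Cx3cr1, the microglial receptor of Cx3cl1, was at 0.13 ± 0.038 and Csf1r, a receptor of Il34, at 0.04 ± 0.11; these 2 were picked for their ligands after their values were seen. Of the genes left out of the members by name, Il18 was at 0.40 ± 0.11, Ccl3 at -0.23 ± 0.22 and Il6r at 0.05 ± 0.23. Ccl2 and Il1r1 were dim on both arrays.

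Markers of the cells that make these proteins give the setting. The 10 hypothalamic marker genes were all above background on both arrays (4 higher and 6 lower, median -0.02). The Y-linked Eif2s3y (at least 29.9-fold, 6.65-fold with normexp) and Ddx3y (1.55) were higher in the male pool, and Uty was dim on both arrays. Ddx3y gave 471 units in the male pool and 164 units in the female pool, and what its probe reports in females was not tested. All 12 microglial markers were measured, with 10 higher and 2 lower in the male pool and a median of 0.07. Their summed level was 1294% (male) and 1224% (female) of the 75th percentile. Perivascular macrophage markers gave 3 higher and 1 lower (median 0.19, summed level 20.8% and 14.2%), and Mrc1 was dim on both arrays. Cd74, the MHC class II invariant chain, gave 178 and 60.9 units, 2.99-fold higher in the male pool (1.58, and 0.98 with normexp, below 2-fold). Of the others, Cd163 was lower (-0.13 ± 0.23), Lyve1 was at 0.07 ± 0.23 and Pf4 at 0.32 ± 0.23 on a spot in a patch. Of 4 neutrophil markers 3 were above background in the male pool only, and Elane was dim on both arrays. S100a9 was 3.52-fold, S100a8 at least 3.02-fold and Camp at least 2.15-fold higher, with none of their spots in a patch. With normexp these 3 were at 1.42-fold, 1.36-fold and 1.23-fold. Their male signals (47.4, 38.0 and 27.0 units) are below its offset of 50 units, which leaves such dim signals little room to reach 2-fold. Normexp is thus a weak test of the 2-fold threshold for these genes. The summed neutrophil level was 5.25% against 1.5% of the 75th percentile.

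All 7 meningeal fibroblast markers were higher in the male pool (median 1.20; summed level 302% against 175%), with Ogn (1.82) and Slc6a13 (1.62) in patches and Col1a2 (1.29) and Col1a1 (1.20) outside, as were all 4 red blood cell markers (median 0.86; 179% and 101%). Of 7 T cell markers Cd3e, Cd3g, Cd2 and Cd8a were dim on both arrays. The summed level was 58.3% and 55.7%, most of it from Cd4 (1045 and 1017 units), which microglia also express, and Cd3d (192 and 193 units). The B cell marker Cd79b was at least 5.53-fold above the female pool (1.74-fold with normexp), its spot being inside a patch. The mast cell markers Cpa3, Mcpt1, Fcer1a and Tpsab1 were dim on both arrays, and Hdc, which neurons of this region also express, was at -0.04. Medians were 0.04 for endothelium, 0.03 for mural cells, 0.25 for choroid plexus and ependyma, 0.11 for astrocytes, 0.12 for oligodendrocytes, -0.06 for neurons and 1.19 for pituitary. Of the choroid plexus markers on 1 array, Kcnj13 was at least 3.82-fold above the female pool (1.56-fold with normexp) and Kl at least 1.14-fold above the male pool. Of pituitary markers Tshb (3.64, and 1.80 with normexp) and Cga (2.03, in a patch) were higher in the male pool. Prl, in a patch, was at least 7.91-fold above the male pool (2.32-fold with normexp). Lhb was at 0.35 ± 0.11 and Pou1f1, in a patch, at -0.32 ± 0.31, while Gh1 was dim on both arrays. The pituitary median of 1.19 thus rests on 4 genes that did not share a direction, 3 being higher and 1 lower. Beside these, Ccl19, Ccl6, Il17re and Cxcl16 were higher in the male pool, as were the fibroblast, neutrophil and red blood cell markers, and the part of those cells in the members' differences was not tested.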

How the data were processed

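Per the labels, hypothalamic RNA of 5 rats per sex was pooled and measured on 1 Cy3 Agilent array each. Per the file headers, the deposited array files hold processed spot intensity, background-subtracted, spatially detrended and not scaled between arrays (Feature Extraction 11.5.1.1, protocol GE1_1105_Oct12, design build rn4); the submitters' processing notes name version 9.1. The deposited series matrix, also intensity, equalled processed signal over its 75th percentile times 100 within 1% in all 42947 rows (column medians 28.0 male and 27.8 female), so it is linear and uncentred.

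Of 58717 rat transcript spots, 664 with an outlier flag were left out; no spot was saturated. The values of 1 member and 1 marker are not reported here, though counts and medians include them. Spots well above background made up 71.6% (male) and 73.0% (female), and the number of arrays limits precision. Repeat spots were averaged as log2, and a probe counted as above background when over 50% of its spots did. RefSeq accessions gave symbols to 21109 of 45598 probes (46.3%) through a GRCr8 gene table. Python 3.11.15, pandas 2.3.3 and, for normexp on median spot signals (the files used here hold no mean signal), limma 3.58.1 were used. The comparison was checked on simulated data.

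The members and lists were chosen with earlier results of these data known. Full values were given to members at least 2-fold apart and to the 4 with the largest difference in each role, shorter values to others. The 18 lists were 1 pathway list and 17 marker lists. Alternatives were normexp, median centring, quantile normalization, the mean over probes, other filters, removal of spots in patches, and the series matrix.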

Additional observations from a re-analysis of the deposited data

How the results depend on the processing

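No paired analysis was possible because each sex had 1 pool, and no array could be left out. The count of members past 2-fold toward the male side was 3; it was 2 with normexp and without spots in patches, 10 with no filter on background, and 3 in the other alternatives. The count toward the female side was 2; it was 1 with normexp, 0 without spots in patches, 0 among probes above background on both arrays, and 5 with no filter. Without a filter the signals of dim probes enter without a bound, which adds 6 dim members and Cxcl13 on the male side. Over all genes and transcripts the counts past 2-fold were 669 (male) and 429 (female), against 309 and 186 with normexp, 111 and 33 without patches, 280 and 148 on both arrays only and 1490 and 1175 with no filter. The members' median of 0.029 was -0.0016 with median centring, -0.017 with quantile normalization and -0.016 without spots in patches. It was 0.072 with normexp, 0.028 with the mean over probes and 0.26 with all 118 members and dim signals at the floor. In the last setting dim signals take the fixed floor of each array, so that median describes the floors and not a shift of the members. Of 65 measured members 10 changed sign under at least 1 alternative, none of them over 0.25 in size, and 15 moved beyond the technical SD with normexp. For the 53 members above background on neither array these arrays show no difference or its absence.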

Other observations

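The 53 members dim on both arrays carry little information about the pools, yet their processed signals were not spread evenly around 0. Their signals ran from 3.06 to 12.4 units on the male array and from 2.59 to 13.0 units on the female array, and the median log2 difference without a bound was 0.27. For 23 of the 53 (43.4%) it lay between 0.24 and 0.30, as it did for 50.7% of all 13390 genes and transcripts dim on both arrays. Without a filter 6 of these 53 members would pass 2-fold toward the male side and 1 toward the female side.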
